A study of Mus musculus and Homo sapiens with 18 samples.

Results

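Retained-intron transcripts of mouse bladder tumours were compared between relapsed tumours and controls. They are transcripts that the annotation classes as retained_intron, that is, alternative forms of a gene that still hold intronic sequence and have no annotated reading frame. Members were chosen by their annotation class and by a total of 30 or more estimated counts over the 6 tumour libraries, so their abundance is not a finding. They numbered 6587 of 22009 retained-intron transcripts and of 147828 transcripts of all classes in the table. Each was set against the summed counts of the protein_coding transcripts of its own gene, called the coding sum below. The bladder tumours came from engineered mice (GEMM in the labels), with 3 libraries labelled control and 3 labelled chemotherapy, whose library names say relapse and which are called relapsed here. The chemotherapy was cisplatin with gemcitabine, and a vehicle is named for controls. The engineered alleles, the promoter that drives them, the strain, the age and the time of harvest were not given in the sources used here. The tissue of both groups was bladder and the RNA was selected for poly(A) tails. No label says that the libraries of a group came from separate animals, so p-values measure the spread between these libraries, which may be technical.

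Introns are removed from most transcripts before export from the nucleus. Transcripts that keep one are often held in the nucleus or, once exported, degraded by nonsense-mediated decay (NMD), the pathway that destroys messages with an early stop codon. Genes for splicing factors are known for this: SR proteins, hnRNPs and their partners limit their own output through retained introns and through poison exons, which carry an early stop. Nuclear stores of such transcripts are also known for Ogt, the enzyme that attaches N-acetylglucosamine to proteins, and for the CLK kinases that phosphorylate SR proteins.

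Splice sites are shown for 8 members, since these junctions decide whether the intron stays. Each window runs from 5′ to 3′ with the first or last pair of intron bases in capitals. At the 5′ splice site 9 exon bases precede the capitals and at the 3′ splice site 9 exon bases follow them. Sequences came from the GENCODE M21 transcripts (GRCm38), matched by transcript identifier and equal length.
Sf3b1-203 5′ splice site: ttgcagatgGTaattctttcccac
Sf3b1-203 3′ splice site: tgttgctgttcttttctgcAGgagggaaga
Srsf2-203 5′ splice site: aagaaaatgGTaatgtctgcggga
Srsf2-203 3′ splice site: cctctttcttttcaaacctAGatgaatcgg
Srsf3-204 5′ splice site: tcggcgcagGTacttgagagagca
Srsf3-204 3′ splice site: ttttactgtttctgcttctAGatccccaag
Clk1-204 5′ splice site: tcacacgggGTatgagtgcctttt
Clk1-204 3′ splice site: ccgcccacttgacgtgtccAGaagagtcac
Ccnl2-205 3′ splice site: tcttcctggttttggtttcAGgaactacat
Srsf5-212 5′ splice site: agctggcagGTttgttgaaataca
Srsf5-212 3′ splice site: acataattgtcttgtgttaAGgatctcaaa
Snrnp48-204 5′ splice site: tacactgagGCaagtttcacatgc
Snrnp48-204 3′ splice site: ttggtttttccttcttccaAGgtgatccgg
Ncl-202 5′ splice site: cttggagtgGTaagttaaagggtt
Ncl-202 3′ splice site: gtgttatctttgtatttgcAGgtgaatcaa

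The Sf3b1 intron is number 4 of 24 in the coding transcript, at chr1:55014563-55016375 on the minus strand, 1813 bases long. The Srsf2 intron is the last of 2, at chr11:116850962-116852020 on the minus strand, and lies outside the coding span. The Srsf3 intron is number 3 of 5, at chr17:29038625-29040774 on the plus strand. The Clk1 intron is number 3 of 12, at chr1:58420212-58421082 on the minus strand. An exon of Ccnl2-205 begins inside intron 5 of 10, at chr4:155817988-155820328 on the plus strand, holds 1790 of its 2341 bases and reads on into the next coding exon, so only the 3′ splice site is shown. The Srsf5 intron is number 5 of 7, at chr12:80947866-80949094 on the plus strand. The Snrnp48 intron, number 6 of 8 at chr13:38217496-38220687 on the plus strand, begins with GC where the other introns shown begin with GT. The Ncl intron is number 9 of 13, at chr1:86352634-86353125 on the minus strand. All but the Srsf2 intron lie within the span of the reading frame. Srsf3-204, Clk1-204 and Ncl-202 hold further whole introns, and the one shown is the longest. These 3 members hold 2543, 1345 and 682 such intron bases, of which 2150, 871 and 492 belong to the intron shown.

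Library totals were 18.965 to 21.757 in units of 1e6 estimated counts. The summed level of 9 fibroblast and smooth muscle markers was 20340 to 21110 CPM (library-scaled counts) in controls and 9400 to 9553 in relapsed tumours. Col1a1, Col1a2, Col3a1, Acta2 and Des were lower at relapse. Pdgfra rose from between 9.24 and 13.2 to between 103 and 111, and Dcn from between 80.5 and 86.9 to between 103 and 105. Lum and Myh11 were at most 2.53. The 12 urothelial and epithelial markers summed to 20.8 to 27.8 and to 359 to 375, with Krt5 and Upk3a at 0 in every library. Krt8, Krt18, Krt14, Cdh1 and Upk1b were higher at relapse, whereas Gata3 fell from between 12.7 and 18.3 to between 1.26 and 2.08. Epcam and Trp63 were at most 0.890. The 13 immune markers summed to 2.66 to 2.87 and to 5.15 to 6.02, with Cd3e, Cd3d and Nkg7 at 0. The 6 endothelial markers summed to 1.75 to 2.80 and to 150.1 to 162. Kdr was 1.149 to 1.635 in controls and 149.3 to 160.6 at relapse, nearly all of the sum at relapse only. Of the uroplakins that define urothelium, Upk1b was 2.30 to 3.16 in controls and 93.75 to 103.2 at relapse, and Upk1a, Upk2 and Upk3a were at or near 0 in every library labelled bladder. Xist was at most 0.158 CPM in controls and at least 456 in relapsed tumours, and the Y-linked Ddx3y was 70.4 to 77.9 and 0, so the groups also differ in sex. The part of cell composition and sex in any result below was not tested, and in bulk tumour RNA fewer cells of a type and less RNA per cell cannot be told apart.

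Most members were scarce. Of all retained-intron transcripts, 5946 had no counts and 9476 had some but under 30. The median member had a total of 89.7 counts, 2218 members had under 60, and 328 had 1000 or more. The 10 most abundant members held 15.9% of all member counts and the 100 most abundant held 37.0%. Just inside the threshold were Ikbkb-205, Zzz3-209 and Nup205-203, at the threshold itself, and just outside were Garnl3-210 at 29.999, Pfas-207 at 29.993 and Klhl12-204 at 29.991. Members lay in 4103 genes, of which 2569 held 1 and 85 held 5 or more, up to 28. There were 108 members with no counts in any control library and 85 with none in any relapsed library. Among the 1681 members with at least 200 counts, the median coefficient of variation between replicates was 22.6% in controls and 21.7% in relapsed tumours. It was 11.7% and 11.04% for the 18163 coding transcripts with as many counts. Reads that fit several transcripts of a gene are split by the quantification tool, and no measure of that uncertainty was used here.

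Retained-intron transcripts held 1.76%, 1.75% and 1.71% of all counts in the control libraries. In the relapsed libraries they held 1.81%, 1.80% and 1.78%. The means were 1.74% ± 0.0235 and 1.80% ± 0.0137 (SD, n = 3 each), a difference of 0.0594 percentage points without overlap (exact two-sided permutation p = 0.1, the smallest that 3 against 3 allows). On the TPM scale, which corrects for length, the direction turned, with 3.18% ± 0.0836 in controls and 3.15% ± 0.0253 at relapse (n = 3, exact permutation p = 0.8). Without the 10 most abundant transcripts the difference was 0.0255 percentage points. Transcripts classed as targets of nonsense-mediated decay held 1.71% ± 0.00774 of counts in controls and 1.45% ± 0.0206 at relapse (n = 3, exact permutation p = 0.1). On the TPM scale they held 2.04% and 1.70%.

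The question of the design is whether the intron-retaining share of a gene's output differs at relapse. Genes that make the splicing machinery had lower summed ratios at relapse, as did some other lists. Summed over the 239 members of 101 genes in 4 lists (SR proteins, hnRNPs, other splicing regulators and the core spliceosome), there were 6.63, 7.35 and 6.86 retained-intron counts per 100 coding counts in the control libraries. The relapsed libraries had 4.77, 4.69 and 4.58. The 6138 members in no splicing list were at 3.38 ± 0.0633 and 3.54 ± 0.0363 (SD, n = 3), in the opposite order. Such sums weigh abundant members most. Over the 3 libraries of a group, member counts of the 4 lists came to 60910 in controls and 48320 at relapse. Ccnl2-205 alone averaged 2103 and 617 counts per library, so a large part of that drop lay in 1 transcript. Among the other lists, DNA repair went from 1.77 ± 0.248 to 1.19 ± 0.0948 without overlap. Sums also fell without overlap for nuclear-detained RNAs, p53 targets, cholesterol synthesis, nuclear decay and export, and heat shock. They rose without overlap for SR protein kinases, NMD and the exon junction complex, cytokines and NF-kB, DNA replication and tRNA synthetases. The lists were drawn up with earlier results of these data known, and no test was made of a list as a whole.

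**Figure D1:**
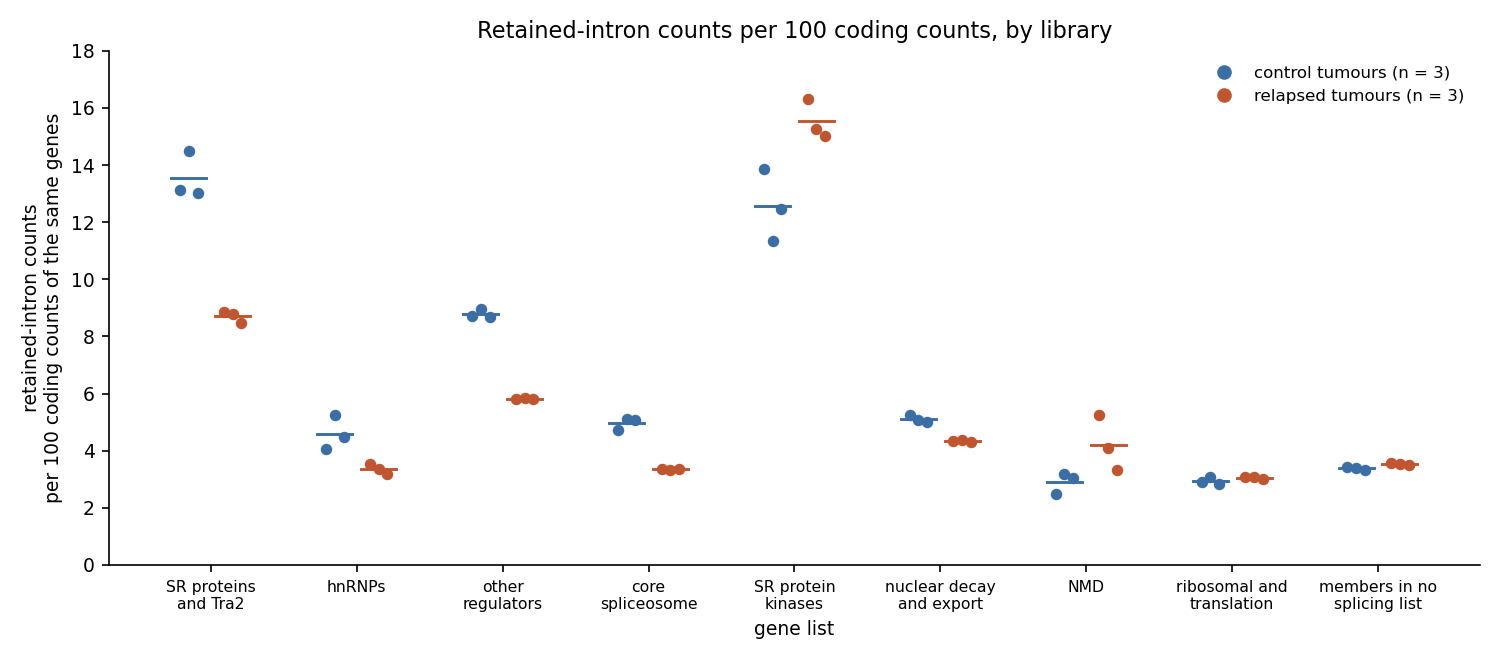
Retained-intron counts per 100 coding counts of the same genes (y axis) for 9 groups of genes (x axis). Points are libraries, blue for the 3 control and orange for the 3 relapsed tumours, and lines are means. SR proteins sit at 13.02 to 14.5 in controls and 8.48 to 8.84 at relapse, while members in no splicing list stay between 3.31 and 3.58.

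Within the 4 lists the ratio to coding was lower in all 3 relapsed libraries than in all 3 controls for 73 members (30.5%) and higher for 21 (8.79%). Over all 11438 transcripts tested this way, all of classes other than protein_coding, 11.8% were lower without overlap and 13.4% were higher. Over the 6397 members in the test, 629 were lower (9.83%) and 930 higher (14.5%). Among the 325 with at least 1000 counts, 65 were lower and 65 higher. For members with under 30 counts in 1 group, separation is fixed in part by the rule on counts. The median log2 change of the ratio was -0.44 in the 4 lists, 0.11 over all members and 0.04 over all transcripts tested. With any 1 library left out, the median of the 4 lists ranged from -0.45 to -0.30. The 73 lower members came from 44 genes. The coding sum rose for 45 of the 73 members and fell for 18. In level, 19 of the 73 were called lower, 7 of these with a risen coding sum. Over all genes tested, coding sums rose in 37.3% and fell in 37.5%, and over all transcripts tested 16.3% were called lower in level. Choosing members by a lower ratio favours risen coding sums and fallen members, so the counts for the 73 are a description only.

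The per-transcript test of the ratio called none of these. The main test was an interaction in edgeR, which asks whether a transcript and its coding sum changed by different factors. It called 0 of 11438 transcripts (0%) and 0 of 6397 members at an adjusted p under 0.05, and the smallest adjusted p was 0.106. At an unadjusted p under 0.05 it found 761 members (11.9%), 457 higher and 304 lower, against 12.3% of all transcripts tested. The common biological coefficient of variation in that fit was 0.552. Restricted to transcripts with at least 100 counts, the same test called 21 of 2958 members higher (0.71%) and 17 lower (0.575%), against 0.73% and 1.01% of all 5756 transcripts tested. A test with the coding sum as offset, added after the data were seen, called 8 members higher (0.125%) and 12 lower (0.188%), against 0.175% and 0.367% of all transcripts tested. limma on the log2 ratio called 30 (0.469%) and 24 (0.375%), against 0.551% and 0.647%, and shared 15 members with the offset test. Calls of members with under 30 counts in 1 group are fixed in part by the rule, since such a transcript entered only through the group where it is high. With any 1 of the 6 libraries left out, the offset test called 0 members higher and 0 to 2 lower.

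SR proteins bind exonic enhancers and recruit the spliceosome. Of 22 members in this list, 9 were lower at relapse without overlap (40.9%) and 2 higher (9.09%). These stand beside 11.8% and 13.4% of all transcripts tested. The median log2 ratio change of the list was -0.60. Summed, they had 13.6 ± 0.817 counts per 100 coding counts in controls and 8.70 ± 0.194 at relapse (SD, n = 3). Coding sums of 5 of the 10 genes rose and 1 fell, beside 37.3% and 37.5% of all genes. Srsf2-203, from the gene of an SR protein that binds exonic enhancers, had 424, 349 and 346 counts in controls and 282, 324 and 322 at relapse. The Srsf2 coding sum was 4383, 3896 and 3752 and then 8715, 8412 and 8399. The retained form was not called in level (edgeR adjusted p = 0.112), and the offset test gave a log2 ratio change of -1.35 ± 0.154 (SE, edgeR adjusted p = 0.0309). The coding sum itself rose by 1.10 on the log2 scale (edgeR adjusted p = 3.21e-15).

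Srsf3-204 lies in the gene of the smallest SR protein, which also promotes export. It had 249.7, 309.8 and 371 counts in controls and 438, 412 and 338 at relapse, against coding sums of 3434, 2883 and 3151 and of 7347, 7312 and 7460.5. Per 100 coding counts this was 9.93 ± 2.36 and 5.38 ± 0.747 (SD, n = 3). The direction depends on what it is set against. The 2 Srsf3 transcripts classed as targets of decay summed to 3054 ± 272 counts in controls and 477 ± 108 at relapse, and against all other Srsf3 transcripts the log2 ratio change of Srsf3-204 was 0.01 in place of -0.87. Sums of the decay class in controls and at relapse, not tested here, also separated for Srsf2 (359 ± 23.9 and 222 ± 2.38), Srsf7 (396 ± 23.5 and 149.5 ± 31.5) and Clk1 (394 ± 37.3 and 155 ± 14.2). With all other transcripts as reference, the median of the SR list turned to 0.01, whereas the hnRNP list stayed at -0.46, the other regulators at -0.40 and the core spliceosome at -0.24.

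Not every SR gene followed. Srsf5-212, whose splice sites are shown above, had 949, 951 and 976 counts in controls and 1028, 995 and 1043 at relapse. With coding sums of 1914 to 2435 in both groups, it stayed at 46.0 ± 6.07 and 45.7 ± 1.63 per 100 coding counts. Srsf6-204 was at 6.33 ± 0.878 and 6.43 ± 1.76 (SD, n = 3). For both transcripts the groups overlapped.

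hnRNPs coat nascent RNA and often oppose SR proteins. Of 50 members in 18 genes, 18 were lower without overlap (36%) and 3 higher (6%), beside 11.8% and 13.4% of all transcripts tested. Their median was -0.49. Coding sums rose in 14 genes and fell in 2, beside 37.3% and 37.5% of all genes. Hnrnpa2b1-211, from the gene of a binder of splicing silencers, had 926, 888 and 893 counts in controls and 912, 1031 and 967 at relapse. Its coding sum went from 8814, 6928 and 7995 to 13782, 14506 and 14419, and the ratio, lower without overlap, missed the threshold (log2 change -0.76 ± 0.124, offset adjusted p = 0.0758). Hnrnpk-209 had 92.3, 172 and 153 counts in controls and 0 in each relapsed library. It met the rule on counts through the controls alone, so its difference is a description. Hnrnpk-215 had 292, 389 and 245 counts and then 92.5, 96.4 and 0. Both Hnrnpk transcripts hold only part of an intron, and the Hnrnpk coding sum was 11656 to 16161 in every library. Matr3-205, from the gene of a nuclear matrix protein, was at 4.16 ± 0.502 and 3.49 ± 0.352 per 100 coding counts, with overlap.

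Of 95 members in the list of other splicing regulators, 30 were lower without overlap (31.6%) and 11 higher (11.6%), with a median of -0.47. Among all transcripts tested, 11.8% were lower and 13.4% higher in this way. Coding sums were higher for 12 of 36 genes and lower for 14, near the 37.3% and 37.5% of all genes. The largest was Ccnl2-205, from the gene of cyclin L2, which partners a splicing-linked kinase. It had 2409, 1869.9 and 2031 counts in controls and 597, 538 and 715 at relapse. The coding sum was 457, 372 and 339.5 and then 479.8, 434 and 382, so this transcript had more counts than the coding form in every library, by less at relapse. On the TPM scale, which corrects for length, its mean was 40.5 in controls and 10.9 at relapse, beside 13.6 and 13.8 for the coding form. By that measure the coding form was the larger at relapse. The level fell by 1.76 on the log2 scale (edgeR adjusted p = 0.000111), and the offset test gave a log2 ratio change of -1.90 (adjusted p = 0.0263). Here the retained form fell, whereas for Srsf2 the coding sum rose. Luc7l-204, from the gene of a U1-associated factor, went from 301, 256 and 298 to 118, 119 and 162 counts, and its coding sum rose from between 809 and 948 to between 1248 and 1259. Its offset log2 ratio change was -1.62 ± 0.210 (adjusted p = 0.0423). The related Luc7l2-203 was at 28.0 ± 3.98 and 20.6 ± 2.65 per 100 coding counts, with overlap. Son-214 and Rbm5-219, from genes of a speckle scaffold and of a splice-site regulator, overlapped between groups at 5.68 ± 1.29 and 6.62 ± 1.39 and at 26.6 ± 4.78 and 27.5 ± 6.11.

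Of 72 members in the core spliceosome list, 16 were lower without overlap (22.2%) and 5 higher (6.94%), with a median of -0.29. The shares of all transcripts tested were 11.8% and 13.4%. Sf3b1-203, from the gene of the branch point subunit of the U2 particle, had 330.1, 349 and 354 counts in controls and 119, 164 and 106 at relapse. Over the same libraries the Sf3b1 coding sum was 5292, 5109 and 5122 and then 7886, 8279 and 8002. The retained form fell (log2 -1.40, edgeR adjusted p = 0.00346) as the coding form rose (0.65, adjusted p = 1.72e-11), and the offset log2 ratio change was -2.05 ± 0.218 (adjusted p = 0.0263). Snrnp70-216, from the gene of a U1 protein, fell from 278 to 372 counts down to 113 to 178, and Ddx39b-204, from the gene of a helicase that also loads export factors, from 585 to 709 down to 373 to 451. Their level tests gave edgeR adjusted p = 0.00726 and 0.00251. Snrnp48-204, from the gene of a minor spliceosome protein and the transcript with the GC site, was at 135 ± 15.6 and 136 ± 29.1 per 100 coding counts, with overlap.

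**Figure D2:**
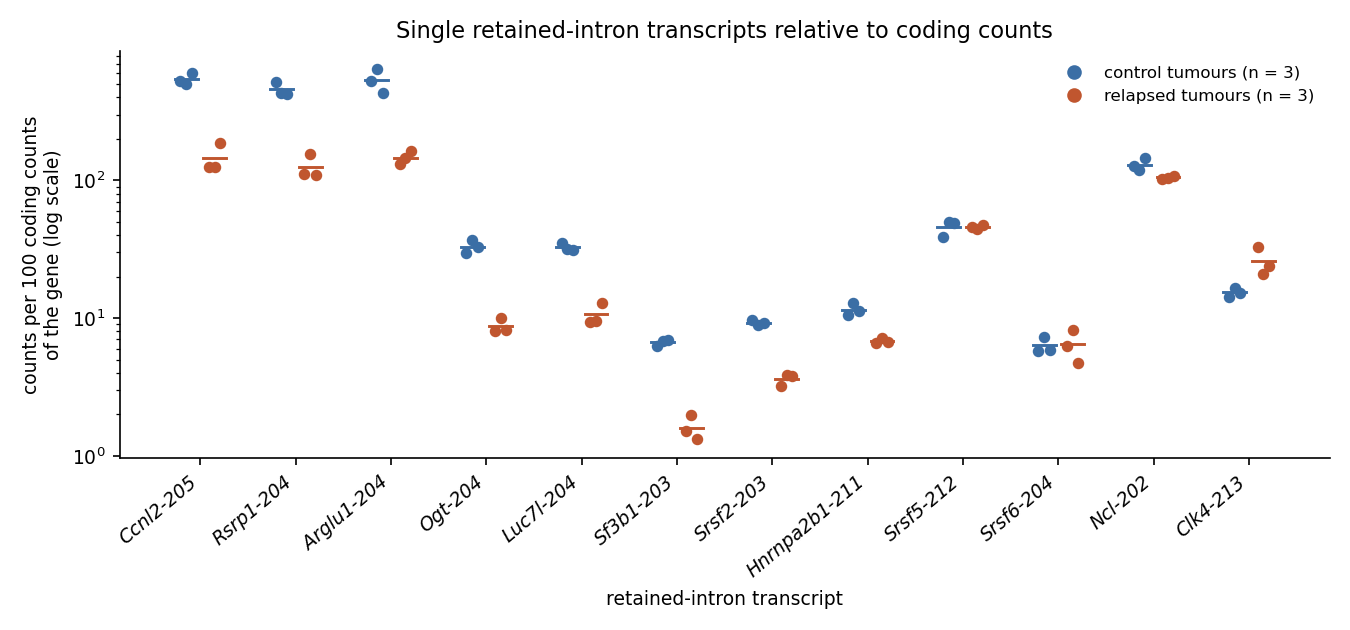
Counts of 12 retained-intron transcripts per 100 coding counts of their gene (y axis, log scale), by transcript (x axis). Points are libraries, blue for 3 control and orange for 3 relapsed tumours, and lines are means. Ccnl2-205 drops from 502 to 598 in controls to 124 to 187 at relapse, and Srsf5-212 overlaps between groups.

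Further calls of the offset test lay outside the splicing lists. They, Luc7l-204 and Hnrnpk-209 were chosen after their values were seen. Arglu1-204, from the gene of a coactivator that acts in splicing, had 1449.6, 1349 and 1215 counts in controls and 817, 882 and 875 at relapse. Its coding sum went the other way, from 274, 211 and 285 to 627, 612 and 537, with an offset log2 ratio change of -1.87 ± 0.186 (adjusted p = 0.0252). Rsrp1-204, from the gene of an arginine and serine rich protein, had 1716, 1329 and 1464 counts and then 666, 822 and 664. The Rsrp1 coding sum was 334, 309 and 344 and then 596, 526 and 609, with an offset change of -1.86 ± 0.186 (adjusted p = 0.0252). In both genes the retained form had more counts than the coding form in every library, and by less at relapse. Ogt-204, in the list of RNAs known to be detained in the nucleus, reads through the 5′ splice site of intron 4 of the coding transcript. It had 741, 845 and 760.1 counts in controls and 149, 175 and 162 at relapse, against coding sums of 2290.0 to 2509.8 and 1746 to 1993. Its level fell by 2.27 on the log2 scale (edgeR adjusted p = 7.24e-05) and its offset log2 ratio change was -1.92 (adjusted p = 0.0218).

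**Figure D3:**
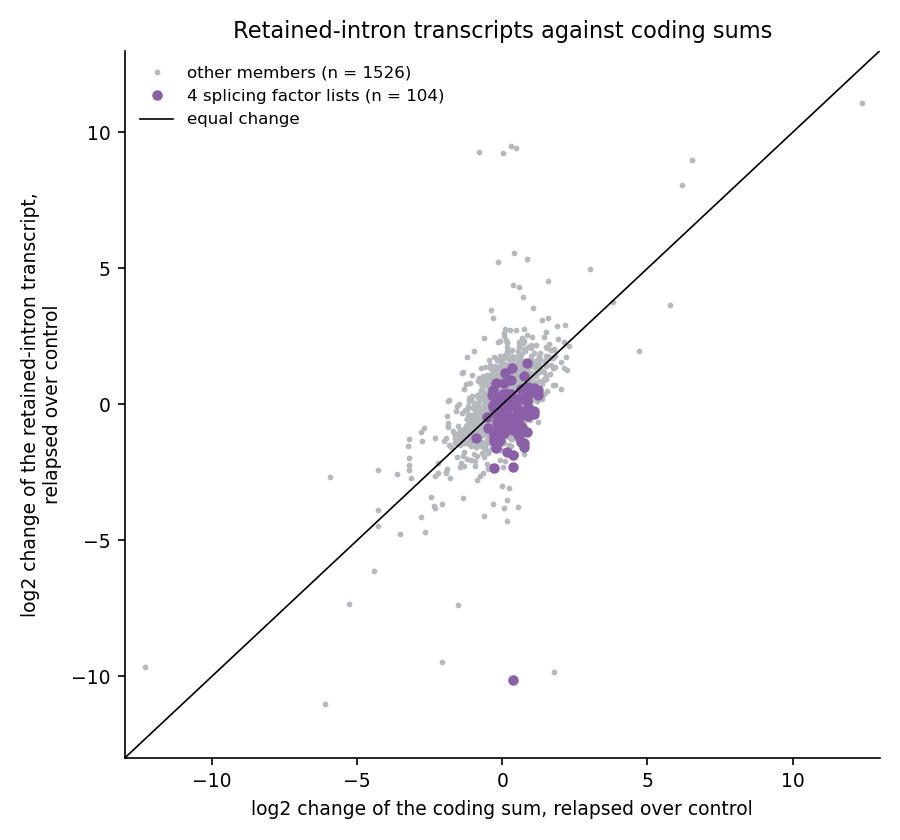
Log2 change of each retained-intron transcript (y axis) against that of its coding sum (x axis) for 1630 members with at least 200 counts that entered both level tests. Purple points are the 104 in the 4 splicing factor lists, grey the others, and the line marks equal change. Of the purple points 83 lie below the line (79.8%), against 45.0% of the grey ones.

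Other lists varied in direction. The kinases that phosphorylate SR proteins had 3 of 20 members lower without overlap (15%) and 5 higher (25%), with a median of 0.37. Among all transcripts tested, 11.8% were lower and 13.4% higher. Summed, the kinase members stood at 12.6 ± 1.26 and 15.5 ± 0.687 per 100 coding counts. Clk1-204 was lower (71.4 ± 11.1 and 32.2 ± 3.34) as the coding sum rose by 1.36 (edgeR adjusted p = 1.91e-09), whereas against all other Clk1 transcripts its log2 ratio change was 0.10. Clk4-213, from another of these kinase genes, was higher without overlap (15.4 ± 1.16 and 25.8 ± 6.20). Clk3-203 had 58.0, 69.3 and 87.2 counts and then 103, 65.5 and 56.1, and Srpk1-212 was at 27.0 ± 3.51 and 23.8 ± 3.83, both with overlap.

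In the list of nonsense-mediated decay and the exon junction complex, 1 of 10 members was higher without overlap and none of 10 lower. Among all transcripts tested, 13.4% were higher and 11.8% lower. All 5 coding sums fell, beside 37.5% of all genes. Smg5-203, from the gene of a decay adaptor, was the higher one at 2.82 ± 0.536 and 4.71 ± 0.223 per 100 coding counts. Rnps1-208, Upf3a-203 and Rbm8a-204 overlapped and had at most 75.1 counts in a library. In nuclear decay and export, 6 of 44 members were lower without overlap (13.6%) and 5 higher (11.4%). These shares were near the 11.8% and 13.4% of all transcripts tested. Thoc1-211, from an export complex gene, was at 45.2 ± 2.90 and 43.8 ± 5.05, and Zcchc8-207, from an exosome adaptor gene, at 36.1 ± 2.68 and 33.6 ± 6.70. Zfc3h1-202 fell in level by 1.00 (edgeR adjusted p = 0.0356), as did its coding sum by 1.26, and Exosc8-208 overlapped at 8.77 ± 2.75 and 9.83 ± 1.68. In the detained list 4 of 30 were lower and 4 higher (13.3% each), also near the 11.8% and 13.4% of all transcripts tested. Sums and medians differed in sign for both of these lists: per 100 coding counts they went from 5.11 ± 0.139 to 4.34 ± 0.0273 and from 7.61 ± 0.175 to 5.40 ± 0.202, with median ratio changes of 0.16 and 0.25. Slc25a37-203, from the gene of a mitochondrial iron importer, was at 163 ± 22.9 and 172 ± 27.6 per 100 coding counts, with retained and coding counts both called lower.

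**Figure D4:**
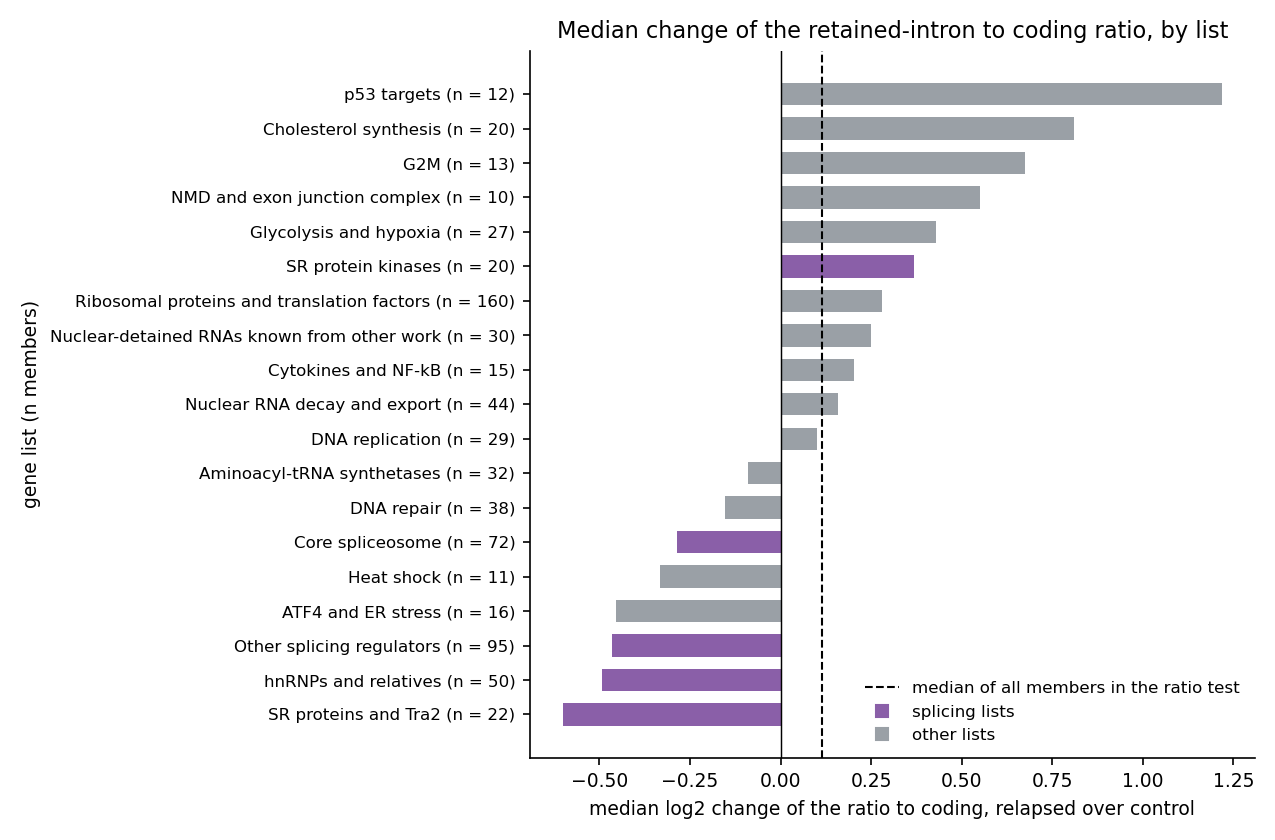
Median log2 change of the retained-intron to coding ratio (x axis, relapsed over control) for 19 gene lists (y axis, with the number of members). Purple bars are splicing lists, grey the rest, and the dashed line is the median of all members, 0.11. SR proteins stand lowest at -0.60 and p53 targets highest at 1.22, but the p53 median is 0.21 over its 5 members with at least 100 counts, below the 0.70 of cholesterol synthesis.

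The level of a transcript, taken alone, answers whether it was more or less abundant at relapse. For levels, 4488 of 6587 members passed the filter on low counts, and the edgeR quasi-likelihood test called 312 higher (6.95%) and 234 lower (5.21%). Over all 32281 transcripts tested, 16.2% were called higher and 16.3% lower. A member that passed the filter through 1 group alone had to differ, so these counts describe the tested members only. Leaving out relapsed library 1, 2 or 3 gave 169, 178 and 178 higher calls, and leaving out control 1, 2 or 3 gave 142, 140 and 131 lower calls. Higher calls made up 57.1% of the members' calls here and 46.1% by limma on log2(TPM + 1). Of the called members, 523 had a tested coding sum. Among those that rose, the coding sum rose for 221, fell for 32 and was not called for 40. Among those that fell, it fell for 169, rose for 28 and was not called for 33. Coding sums of 3964 member genes were called higher in 1523 (38.4%) and lower in 1529 (38.6%), near the 37.3% and 37.5% of all genes tested. By limma on log2(TPM + 1) these calls were 1071 and 1671, or 39.1% higher of those called.

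In cholesterol synthesis members and coding sums rose together. All 12 coding sums rose, as did 9 of 15 tested members, with none falling. Among all features tested, 37.3% of coding sums and 16.2% of transcript levels were called higher. The ratio was higher without overlap for 9 of 20 (45%) and lower for 1 (5%), beside 13.4% and 11.8% of all transcripts tested. Its median change was 0.81, yet the summed counts per 100 coding counts went from 4.53 ± 0.318 to 3.61 ± 0.204, the other way. Srebf2-205, from the gene of the master regulator of the pathway, rose from 527, 493 and 515 counts to 765, 816 and 896 (log2 0.69, edgeR adjusted p = 0.00095), ahead of its coding sum (0.33). Lss-204, from the gene of lanosterol synthase, rose less than its coding sum (0.43 and 1.31), which gave 36.0 ± 2.82 and 19.8 ± 1.67 per 100 coding counts.

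Glycolysis and hypoxia genes had 13 of 15 coding sums higher and 5 of 24 members higher in level, with 1 lower. Among all features tested, 37.3% of coding sums were called higher. Of transcript levels, 16.2% were called higher and 16.3% lower. Pkm-205, from the pyruvate kinase gene, had 157, 198 and 163 counts and then 547, 727 and 633. Gapdh-213, from another glycolytic enzyme gene, had 83.8, 86.6 and 96.3 and then 358, 306 and 395. Both rose (log2 1.87 and 1.98, edgeR adjusted p = 0.000597 and 0.000311), but remained scarce beside the coding form, with 0.908 ± 0.141 for Pkm-205 and 0.465 ± 0.0568 for Gapdh-213 per 100 coding counts at relapse. Among cytokine and NF-kB genes, 5 of 12 members rose and none fell. Cxcl5-202, from a neutrophil attractant gene, was at 0 in every control and at 273, 285 and 249 at relapse, so it met the rule through relapse alone, and its coding sum went from at most 4.0 to between 16271 and 16941. Nfkbia-202, from the gene of an NF-kB inhibitor, had 96.1, 88.6 and 79.7 counts and then 447, 472 and 384, and kept to 30.1 ± 1.09 and 34.9 ± 5.74 per 100 coding counts.

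Replication genes had 14 of 18 coding sums higher and 4 of 21 members higher in level. For this list and those below, the shares called higher over all features were 37.3% of coding sums and 16.2% of transcript levels. Called lower in level were 16.3% of all transcripts tested. Rfc2-204, from a clamp loader gene, rose from 225 to 303 counts up to 501 to 535 (log2 1.02, edgeR adjusted p = 0.000753), and Tyms-202, from the thymidylate synthase gene, rose by 1.27 (adjusted p = 0.00543). Among G2M genes 7 of 8 coding sums rose and 1 of 6 members did, and Ccnb1-204 and Cdk1-204, from genes that drive mitotic entry, were not called (edgeR adjusted p = 0.19 and 0.80). DNA repair members were scarce. Only 1 of 22 was called, lower, and Rad52-214 and Pms2-207 had at most 78.4 counts in a library. Heat shock coding sums rose for 6 of 7 genes and 1 of 7 members did. Hspa8-208 and Hsph1-208, from chaperone genes, were not called.

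Coding sums mostly fell among p53 targets, stress genes and tRNA synthetases. Among all features tested, 37.5% of coding sums and 16.3% of transcript levels were called lower. Of 7 coding sums of p53 target genes 6 fell and none rose, and 4 of 9 members fell. Gadd45a-204, from a DNA damage response gene, went from 695, 812 and 875 counts to 31.0, 35.2 and 41.7 (log2 -4.46, edgeR adjusted p = 2.32e-05), at 13.9 ± 3.11 and 12.02 ± 1.08 per 100 coding counts. Eda2r-203, from a death receptor family gene, had 86.8, 41.9 and 97.1 counts in controls and 0, 0 and 1.3 at relapse, so it met the rule through the controls alone. The list's summed counts per 100 went from 5.41 ± 0.686 to 1.97 ± 0.273 although its median ratio change was 1.22. That median was 0.21 over the 5 members with at least 100 counts and 0.003 over the 4 with at least 200. Among genes of the ATF4 and ER stress list, 10 of 11 coding sums fell and 3 of 14 members did. Atf4-203 had 176, 121 and 139 counts and then 155, 155 and 165 while the coding sum of this stress regulator fell by 1.14 (edgeR adjusted p = 6.69e-16), and Psat1-204, from a serine synthesis gene, was not called. Of aminoacyl-tRNA synthetase genes 13 of 15 coding sums fell and 5 of 23 members did, including Eprs-204 and Nars-215 (log2 -1.17 and -1.19, edgeR adjusted p = 0.0288 and 0.0239).

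The most abundant members came from housekeeping and matrix genes and overlapped between groups in ratio for 8 of 12. Ncl-202, from the gene of nucleolin, a nucleolar protein that aids ribosome assembly, had 13066, 10717 and 12429 counts in controls and 11686, 11832 and 12007 at relapse. Its coding sum was 8563 to 10298 and then 11119.6 to 11341, so the retained form was at 130.1 ± 13.7 and 105 ± 2.51 per 100 coding counts, lower at relapse without overlap. Slc1a5-202, from a glutamine transporter gene, fell from 2996 to 3344 counts down to 657 to 764 and so did its coding sum (79.0 ± 7.03 and 82.7 ± 6.13 per 100). Prelid1-202, from a gene for mitochondrial lipid transfer, rose with its coding sum (85.1 ± 10.3 and 92.2 ± 6.74). Vim-204 and Ctsb-202, from the vimentin and cathepsin B genes, rose in level by 0.91 and 0.72 (edgeR adjusted p = 0.00167 and 0.00173), with ratios that overlapped. Tmed7-202, Capns1-208 and Rps20-201 also overlapped.

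Fn1-202, from the fibronectin gene, differed widely among the controls. It had 15319, 2846 and 5339 counts in controls and 9427, 6996 and 8210.3 at relapse, beside a coding sum that fell from between 266981 and 276605 to between 69338 and 75699. The ratio was higher at relapse without overlap (2.87 ± 2.39 and 11.3 ± 2.19 per 100 coding counts), while the level was not called (edgeR adjusted p = 0.895). Fbln2-206, from another matrix gene, was higher relative to coding without overlap (11.03 ± 0.411 and 14.1 ± 0.879 per 100). Of 160 members in ribosomal protein and translation genes, 35 were higher without overlap (21.9%) and 13 lower (8.1%). The shares of all transcripts tested were 13.4% and 11.8%. The list had a median of 0.28, and its sum was 2.94 ± 0.131 and 3.05 ± 0.0472 per 100 coding counts. Rps26-202, with 8640.3 to 10889.5 counts in every library beside a coding sum of 207 to 451, and Rps16-203, at 3004 to 3674 counts, are uncertain, since ribosomal protein genes have near-identical copies.

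The remaining calls of the offset test, also chosen after their values were seen, came from genes of varied function. Cad-208, Osbpl5-204 and Lrrk1-204 were at 0 in every control and at 82.3 to 88.9, 57.7 to 109 and 58.6 to 116 counts at relapse. Mbd1-205 had 1.1, 2.2 and 5.4 counts in controls and 142, 119 and 132 at relapse. These 4 met the rule on counts through relapse alone, so their differences are given with no test. Mrpl38-204, Uhrf2-203 and Cacna2d1-211 changed less, with offset log2 ratio changes of 2.50, 1.28 and 1.34. Nrip2-204 was higher in ratio while its level fell by 2.69 on the log2 scale, beside a coding sum of 998 to 1359.6 in controls and 16.1 to 25.2 at relapse. Naaa-203, from the gene of a lysosomal amidase, went from 514, 467 and 412 counts to 1.6, 1.7 and 3.8, while its coding sum fell from between 1680.2 and 1876 to between 550.1 and 644. Acad9-209 had 69.4, 53.4 and 42.4 counts in controls and 0 at relapse. Both met the rule through the controls alone, so no test is given. Wdr76-205 and Antkmt-205 were lower, with offset log2 ratio changes of -2.46 and -1.96.

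Members without a usable coding partner numbered 190, of which 128 entered the level test, with 19 higher and 3 lower. Over all 32281 transcripts tested, 16.2% were called higher and 16.3% lower, so the share of higher calls here was not above that of all transcripts. Examples chosen after their values were seen are Mir100hg-205, from a microRNA host gene, which rose by 0.51 (edgeR adjusted p = 0.00908), and Hoxa11os-202, antisense to Hoxa11, which had 31.1, 39.6 and 24.1 counts and then 136.6, 107.7 and 121.0 (adjusted p = 0.00437). The strand setting of the quantification was not given in the sources used here, so antisense and sense reads may not be told apart.

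The annotation shows what the members hold. Of 6484 members matched by identifier and length, 2779 contain at least 1 whole intron of a coding transcript of their gene, 1919 of them exactly 1. Another 3621 hold only part of an intron, of which 1783 read through a 5′ splice site and 1597 run into an exon through a 3′ splice site. The distinct longest introns held whole numbered 2597 and had a median length of 430 bases, with quartiles of 169 and 1052. The 59889 other coding introns of the same genes had a median of 1179, with quartiles of 381 and 2973. Thus 73.5% of the retained introns were under 1000 bases, against 45.5% of the others. An intron counted as retained only if a member's exon spanned it with 10 bases on each side, which favours short introns. Introns that members held only in part were counted among the others. The difference in length is therefore fixed in part by that rule. GT and AG bounded 2554 of them (98.3%), GC and AG 30, and AT and AC 5. They were the last intron in 9.63% and the first in 12.1%, close to the 9.79% and 13.4% over all coding introns. Over members in the ratio test the median GC content was 50.2% in the intron and 52.7% in the rest of the transcript. Among members with at least 200 counts, the whole introns of those lower without overlap had a median of 833 bases and 44.8% GC (127 members), those higher 619 bases and 49.7% (131), and those that overlapped 498.5 bases and 50.1% (528). In the 4 splicing factor lists 86 members held a whole intron, with a median of 661 bases and 40.01% GC.

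**Figure D5:**
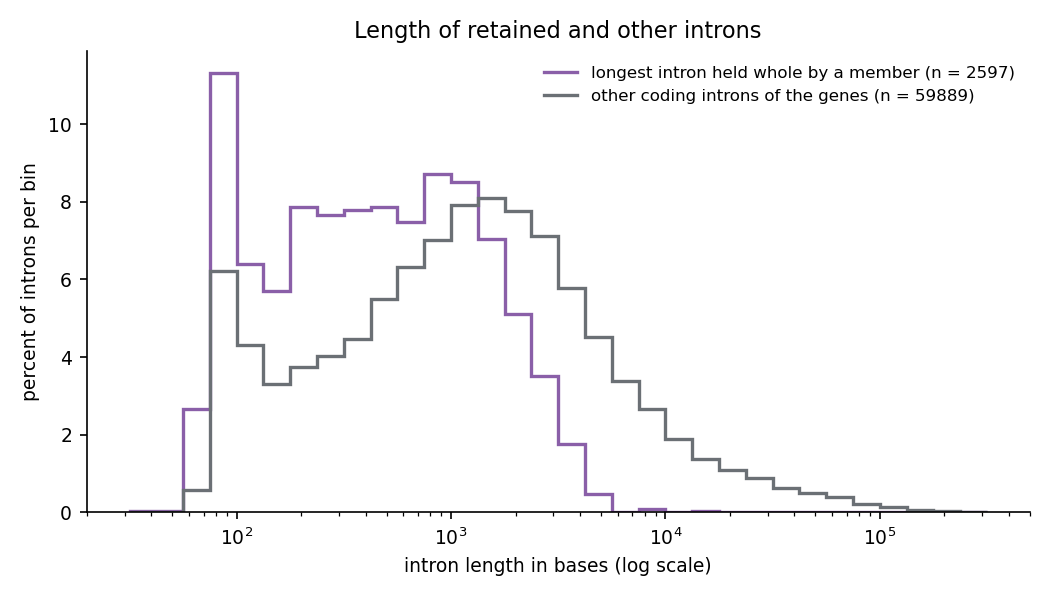
Percent of introns per bin (y axis) by intron length in bases (x axis, log scale) for the 2597 longest introns held whole by a member (purple) and the 59889 other coding introns of their genes (grey). The medians are 430 and 1179 bases. This difference is fixed in part by the rule, since only introns spanned whole by a member count as retained.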

How the data were processed

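Poly(A)-selected RNA of 6 mouse bladder tumour libraries (3 control, 3 relapsed) was analysed per transcript. Values deposited by the authors are estimated counts and, in a second table, TPM. The submitters' processing notes name Salmon, with no version, and the builds GRCm38 and mm10. Annotation class, gene and length came from the row names, per the file headers. Transcript versions differ from GENCODE M21, so coordinates and sequences were used only for transcripts of equal length there. The members, gene lists and tests were chosen with earlier results of these data known.

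Estimated counts were rounded to whole numbers for count tests. Levels and coding sums were tested over the whole table with edgeR 4.0.16 in R 4.3.3 (TMM scaling, filterByExpr, robust quasi-likelihood test, Benjamini-Hochberg adjustment, threshold 0.05). The ratio to coding was tested as an interaction over 2 counts per library, for transcripts and coding sums with totals of at least 30. limma 3.58.1, DESeq2 1.42.0 and a fit with the coding sum as offset, the last added after the data were seen, were alternatives. Named members are the 12 largest by total, up to 4 per splicing or decay list, up to 2 per other list, and the 20 calls of the offset fit. The rule's first part, calls of the main ratio test, named none, and 1 member that the rule names is not reported here. The scripts were tested on simulated data. Transcript counts there had less spread than in these libraries, so the simulation does not show how often the ratio test finds a change here. Replicate numbers did not pair the libraries, and the 18.965 to 21.757 (in units of 1e6) counts per library set the precision.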

Additional observations from a re-analysis of the deposited data

How the results depend on the processing

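Level calls among members, 312 higher and 234 lower, became 206 higher with no filter on low counts, 126 and 107 with the replicate block, and 535 and 413 with DESeq2. They were 169 to 268 and 131 to 179 with 1 library left out, where fewer samples entered the fit. Same-numbered libraries correlated at 0.0326, 0.0032 and 0.0448, and not every library correlated best with its own number, so the numbers give no pairing. The 0 ratio calls became 21 higher and 17 lower at 100 counts or more, 30 and 24 with limma at pseudocount 0.5, 56 and 37 at pseudocount 5, 29 and 18 on TPM, and 8 and 12 with the offset. With all retained-intron transcripts of a gene summed, those under 30 counts included, there was 1 lower call. Coding sums changed at least 2-fold in 283 genes upward and 334 downward. The retained-intron share differed by -0.0322 percentage points on TPM, by 0.0255 without the 10 most abundant transcripts and by 0.0799 as a share of retained-intron and coding counts. The cause was not tested in any of these cases.

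Of 1170 settings of named ratios, 1035 kept direction and side of the threshold, 84 passed it newly and 51 reversed. With all other transcripts of the gene as reference, log2 ratio changes reversed for Clk1-204 (0.1), Pms2-207 (1.15), Rbm5-219 (-0.166), Slc25a37-203 (-0.00533), Srsf3-204 (0.0144), Srsf5-212 (0.00483) and Srsf6-204 (0.0159). On TPM they reversed for Rbm5-219 (-0.0664), Slc25a37-203 (-0.147), Snrnp48-204 (0.0119), Srsf6-204 (0.00715) and Tyms-202 (-0.0346). With the offset they reversed for Cxcl5-202 (10.1), Hsph1-208 (-0.335), Rps16-203 (-0.0414), Snrnp48-204 (0.011) and Srsf6-204 (0.0244), and with pseudocount 5 for Eda2r-203 (0.887). With 1 library left out, changes spanned 0 for Capns1-208 (-0.0058 to 0.453), Ccnb1-204 (-0.35 to 0.0922), Hsph1-208 (-0.939 to 1.27), Nars-215 (-0.121 to 0.226), Pms2-207 (-3.19 to 2.17), Rad52-214 (-0.389 to 0.661) and Rbm5-219 (-0.13 to 0.174). So did those of Rps16-203 (-0.175 to 0.295), Rps20-201 (-0.0227 to 0.22), Slc1a5-202 (-0.00936 to 0.109), Slc25a37-203 (-0.0548 to 0.166), Snrnp48-204 (-0.163 to 0.143), Srsf5-212 (-0.115 to 0.0598), Srsf6-204 (-0.203 to 0.201), Thoc1-211 (-0.135 to 0.0299), Tyms-202 (-0.127 to 0.452) and Zcchc8-207 (-0.26 to 0.0346). Low counts per library limit most members, and the split of reads among overlapping transcripts adds error that the counts do not show.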
